A study of Arabidopsis thaliana with 12 samples.

Results

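The nuclear genes of plastid ribosomal proteins were followed here on 12 arrays of Arabidopsis thaliana RNA. Members were chosen from the probe annotation as loci with a probe of exactly 1 gene. A list of 41 loci for plastid ribosomal proteins gave 6 such genes, among 689 named loci and 3438 features in all. The large subunit was represented by RPL29 (AT5G65220), RPL17 (AT3G54210), RPL5 (AT4G01310) and AT1G29070, and the small subunit by RPS10 (AT3G13120) and RPS6 (AT1G64510). AT1G29070 had first been picked on its difference between the treatment groups, where it was among the 8 largest rises, and the other 5 had been taken from a list with the results of these data known. The differences between the groups are therefore given for all members as descriptions, and counts of members that passed a threshold support nothing.

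Plastids make part of their own proteins on ribosomes of bacterial type. The rRNA and some ribosomal proteins are encoded in the plastid genome, while the remaining ribosomal proteins, the 6 genes described here among them, are encoded in the nucleus, made in the cytosol and imported. In leaves these ribosomes make core subunits of the photosystems and the large subunit of Rubisco, so that their supply is tied to the building of chloroplasts.

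Total RNA came from wild-type plants of ecotype Columbia 0, with 6 arrays per group. The staurosporine group had 4 h of water and then 4 h of staurosporine, a broad inhibitor of protein kinases. The ascorbate group had 4 h of staurosporine and then 4 h of 25 mM ascorbate, vitamin C, an antioxidant abundant in plant cells. Both groups are labelled pH 5.5. The staurosporine dose is labelled 2 µM in the ascorbate group but 25 mM in the staurosporine group, which is also the dose of ascorbate. All plants thus received staurosporine, there was no untreated group, and the timing of staurosporine differed along with ascorbate. No tissue is named. All 5 measured genes of the photosystems and their antennae (PSB27, PSBY, PSBW, LHB1B2 and PSAN) read above 0 on every array. So did 73.9% of all features, and the tissue is not settled by these readings. PSBW, a subunit of photosystem II, read between 34.3 and 92.0, and the others between 0.227 (PSAN) and 1.90 (PSB27).

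The values are intensities in relative units on a linear scale that ends at 100, and with 6 arrays in a group their number limits the precision. The highest value was 100 on every staurosporine array and on ascorbate arrays 1, 2 and 4. It was 96.1, 69.0 and 65.9 on ascorbate arrays 3, 5 and 6. Arrays whose numbers follow each other (1 and 2, 3 and 4, 5 and 6) resembled each other within a group, so each level below is a mean over 3 pair averages with its SD. No label says that arrays came from separate plants. Any p-value then weighs the difference between the groups only against the spread among these arrays, which may be technical. Each SE of a log2 change below comes from a fit that took the 12 arrays as separate. The fitted correlation of consecutive arrays within a group was 0.54, so these SEs are likely too small. Array-wide brightness moved with the groups: the median log2 intensity was higher with ascorbate by 0.15 in arrays 1 and 2, by 1.04 in arrays 3 and 4, and by 1.09 in arrays 5 and 6. Readings are therefore given as deposited, relative to the median of their own array, and after quantile normalization, which sets every array to the same distribution. In whole RNA, fewer chloroplast-bearing cells and less transcript per cell cannot be told apart.

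**Figure D1:**
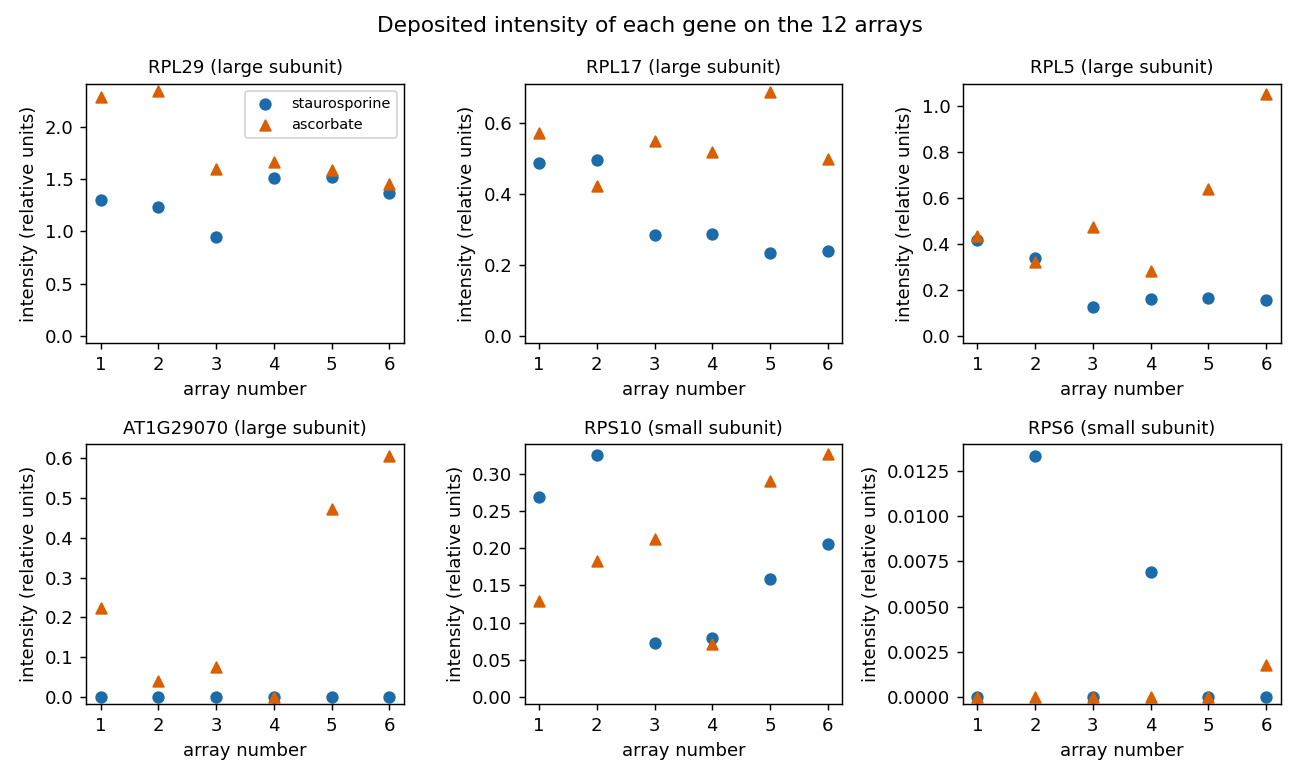
Deposited intensity (relative units, linear axes that differ between panels) of the 6 genes against array number, with circles for staurosporine and triangles for ascorbate. RPL29 and RPL5 overlap between the groups by few arrays, RPS10 overlaps throughout, AT1G29070 lies at 0 on every staurosporine array and RPS6 lies at or near 0 on all 12.

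RPL29 had the brightest probe of the 6. The bacterial protein L29 sits at the rim of the tunnel through which the new protein leaves the ribosome. RPL29 read 0.948 to 1.52 with staurosporine (median 1.34) and 1.45 to 2.34 with ascorbate (median 1.63). The ascorbate readings lay above every staurosporine reading on 5 of 6 arrays, and array 6, at 1.45, lay below the 1.51 and 1.52 of staurosporine arrays 4 and 5. Pair averages were 1.32 ± 0.116 and 1.82 ± 0.428 (SD, n = 3). The log2 ratio of these levels was 0.87 in arrays 1 and 2, 0.41 in arrays 3 and 4, and 0.07 in arrays 5 and 6. The higher ascorbate level thus came mainly from arrays 1 and 2, at 2.28 and 2.34. Staurosporine arrays 3 and 4, at 0.948 and 1.51, differed 1.59-fold within their pair, while the ascorbate arrays of each pair lay within 1.10-fold of each other.

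Relative to its own array, RPL29 did not keep that direction. It read 3.15 to 8.96 times the array median with staurosporine and 3.001 to 5.44 times with ascorbate. The median-centred log2 difference was 0.72 in arrays 1 and 2, but −0.60 in arrays 3 and 4 and −1.02 in arrays 5 and 6. After quantile normalization it was positive in all 3 pairs, with a log2 change of 0.49 ± 0.12 (SE) over the 12 arrays taken as separate. The direction for RPL29 therefore differed between scalings, and the part of array-wide brightness in it was not tested.

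RPL17 was dimmer, near the middle of its arrays. Its bacterial counterpart L17 also lies by the exit tunnel. RPL17 read 0.234 to 0.497 with staurosporine (median 0.287) and 0.423 to 0.688 with ascorbate (median 0.533). Of the ascorbate arrays, 5 of 6 lay above every staurosporine array, and the exception was array 2, at 0.423 against 0.486 and 0.497 on staurosporine arrays 1 and 2. Pair averages were 0.338 ± 0.135 and 0.541 ± 0.0486 (SD, n = 3). The log2 ratio of levels in the 3 pairs was 0.02, 0.90 and 1.33, beside array-wide shifts of 0.15, 1.04 and 1.09. Set against the median of its own array, RPL17 read 1.03 to 1.70 times it with staurosporine and 0.981 to 1.55 times it with ascorbate. These ranges overlapped almost fully, and the normalized log2 change was 0.10 ± 0.16 (SE).

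RPL5 differed more between the groups than RPL17 in 2 of the 3 pairs. In bacteria, L5 binds the 5S rRNA and helps to anchor it in the large subunit. RPL5 read 0.125 to 0.418 with staurosporine (median 0.163) and 0.285 to 1.05 with ascorbate (median 0.454). Ascorbate arrays lay above every staurosporine array in 4 of 6 cases. Pair averages were 0.227 ± 0.132 and 0.534 ± 0.269 (SD, n = 3). The log2 ratio of levels was −0.01 in arrays 1 and 2, 1.42 in arrays 3 and 4 and 2.40 in arrays 5 and 6. Arrays 1 and 2 thus showed the same level in both groups, and ascorbate arrays 5 and 6, at 0.640 and 1.05, carried much of the difference.

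The position of RPL5 within its array moved as well. It read 0.685 to 1.07 times the array median with staurosporine and 0.744 to 2.18 times with ascorbate, with 3 ascorbate arrays above every staurosporine array. Median-centred differences in the 3 pairs were −0.16, 0.34 and 1.26, and the normalized log2 change was 0.54 ± 0.31 (SE). Consecutive ascorbate arrays of RPL5 differed by 1.35-fold, 1.66-fold and 1.64-fold in the 3 pairs. Over 2540 features with no zero, the median difference between the same arrays was 1.17-fold, 1.22-fold and 1.12-fold.

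AT1G29070, the fourth large subunit gene, had been picked for the contrast that its readings show. It was listed at 0 on all 6 staurosporine arrays. With ascorbate, arrays 1 and 2 read 0.224 and 0.0394, arrays 3 and 4 read 0.0751 and 0, and arrays 5 and 6 read 0.471 and 0.604. The ascorbate readings therefore spread from 0 to slightly above the array median, which array 6 exceeded 1.25 times. No fold is given against readings of 0. Of 231 features listed at 0 on all staurosporine arrays, 2 read above 0 on at least 5 ascorbate arrays, and AT1G29070 was the only named gene of the 2. The gene was picked on these same readings, so nothing is read from this count. Whether such a 0 is a low level or a spot that could not be read is not known, and 112 features were listed at 0 on all 12 arrays.

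RPS10, of the small subunit, had a negative change after quantile normalization and a positive one of 0.17 on the deposited scale. Bacterial S10 lies in the head of the small subunit and also takes part in transcription antitermination. RPS10 read 0.0727 to 0.325 with staurosporine (median 0.182) and 0.0708 to 0.327 with ascorbate (median 0.198), so the groups overlapped over their whole range. Pair averages were 0.185 ± 0.111 and 0.202 ± 0.0925 (SD, n = 3). In log2 ratios of levels the 3 pairs disagreed, at −0.93, 0.90 and 0.76. Relative to the array median, RPS10 read 0.419 to 0.905 times with staurosporine and 0.202 to 0.677 times with ascorbate. The median-centred differences of −1.09, −0.35 and −0.32 had 1 sign, as had the normalized differences of −1.18, −0.55 and −0.71. The normalized log2 change was −0.81 ± 0.26 (SE). Ascorbate arrays 3 and 4 read 0.213 and 0.0708, a 3.004-fold difference within a pair, against 1.22-fold at the median of all features with no zero.

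RPS6 gave almost no reading. In bacteria, S6 sits with S18 on the platform of the small subunit. RPS6 was listed at 0 on 9 of the arrays, and read 0.0133 and 0.00692 on staurosporine arrays 2 and 4 and 0.00175 on ascorbate array 6. Being at 0 on 9 or more arrays was shared by 371 features. After normalization the reading of 0.0133 took −9.33 and the lower one of 0.00692 took −4.26, so normalized values of RPS6 do not keep the order of its readings. A fitted change of RPS6 depends on the value put in place of 0 and gives it no direction.

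The 6 probes stood at very different places among the features of their arrays. RPL29 was brighter than 86.7% to 94.4% of features on all arrays, and it had the highest reading of the 6 on 12 of 12. RPL17 was brighter than 49.3% to 68.4% of features and RPL5 than 39.6% to 84.4%. RPS10 was brighter than 20.4% to 47.6%, and AT1G29070 than 0% to 61.5%. RPL17 read above RPS10 on 12 of 12 arrays and above RPL5 on 11, with ascorbate array 6 as the exception. RPL5 read above RPS10 on 11 arrays, with staurosporine array 6 as the exception. The brightness of a spot also depends on its probe and gene lengths are not corrected for, so this order is one of signals and says nothing of which transcript was the more abundant.

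**Figure D2:**
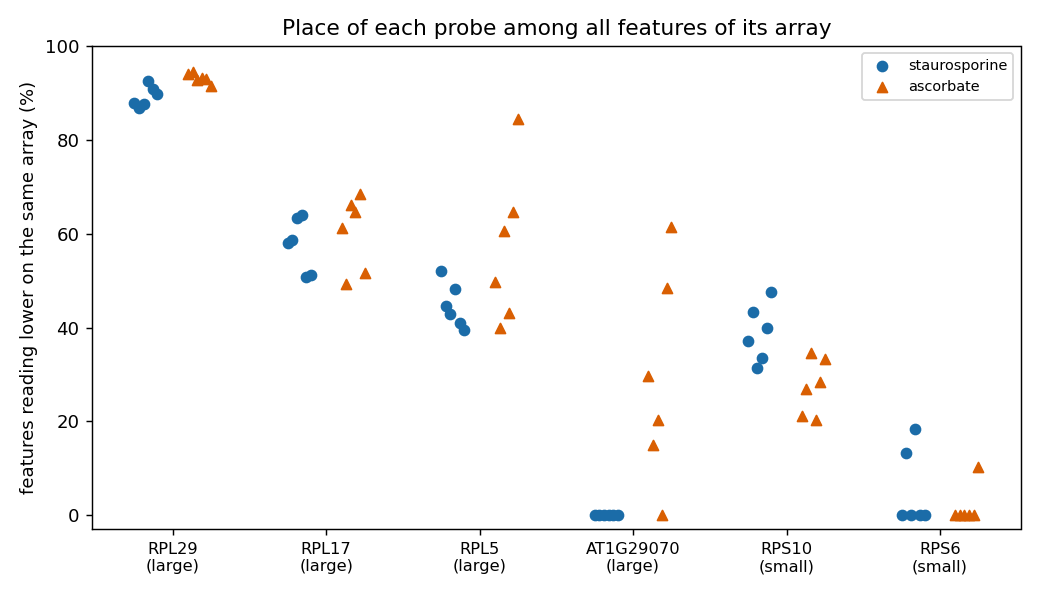
Percentage of all features on the same array that read lower than each gene's probe, with circles for staurosporine and triangles for ascorbate in the order of array number from left to right. RPL29 stays between 86.7% and 94.4%, while RPL5 reaches 84.4% and AT1G29070 61.5% on ascorbate array 6.

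No member had deposited readings that kept the groups fully apart, which 13.0% of all features did as higher and 4.10% as lower with ascorbate. In the limma fit over all features and 12 arrays, 2 of the 5 members other than AT1G29070 passed an adjusted p under 0.05. RPL29 passed as higher and RPS10 as lower with ascorbate, and RPL17, RPL5 and RPS6 did not pass. Of all features, 28.0% passed, 13.9% as higher and 14.1% as lower, and since the members were taken up with this contrast known, nothing is read from their count. With the array number as a block, RPS10 passed as lower and RPL29 did not pass, where 24.7% of all features passed, 12.1% as lower. Over pair averages none of the 5 passed in limma, where 1.54% of all features did, and 2 of the 5 had an unadjusted p under 0.05. On the deposited scale, where 37.8% of all features passed, the 2 that passed were RPL17 and RPL5, both as higher, like 31.8% of features. After median centring none of the 5 passed, with or without adjustment, while 36.9% of all features did. Without arrays 1 and 2 of both groups none of the 5 passed in limma either, with or without adjustment, while 24.7% of all features did, and the log2 changes were 0.30 for RPL29, 0.23 for RPL17, 0.94 for RPL5 and −0.67 for RPS10. The RPS10 call was also lost when any 1 of 8 arrays was left out: arrays 1, 2, 5 and 6 with staurosporine, and arrays 1, 2, 4 and 5 with ascorbate. The RPL29 call held without any 1 of the 12.

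Among the 4 members that read above 0 on every array, the median normalized log2 change was 0.29, and 3 of the 4 were positive. Over the 2540 features with no zero it was −0.06, and 47.7% were positive. On the deposited scale all 4 were positive, with a median of 0.60, beside 0.49 and 70.4% over the features with no zero. After median centring 1 of the 4, RPL5, was positive, with a median of −0.16, beside −0.27 and 37.6% over the features with no zero. The order of the 4 by size of change also moved with the scale, except that RPS10 had the lowest value on each of the 4 scales plotted.

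**Figure D3:**
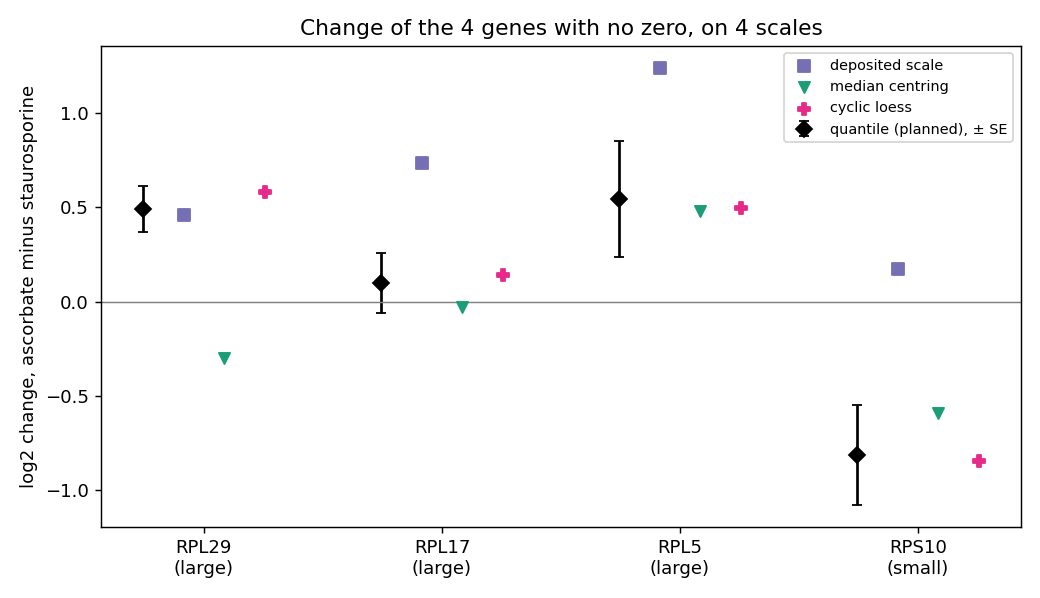
Log2 change (ascorbate minus staurosporine) of the 4 members with no zero, after quantile normalization (diamonds, ± SE), on the deposited scale (squares), after median centring (triangles) and after cyclic loess (crosses). RPL29 runs from −0.30 to 0.58 and RPL17 from −0.03 to 0.73, RPL5 is positive on each scale, and RPS10 is the lowest of the 4 on each scale.

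For the large against the small subunit, the median normalized log2 change was 0.52 over the 4 large subunit genes and −1.36 over the 2 small subunit genes, a difference of 1.87. By pair the difference was 1.77, 2.64 and 1.27 (SD 0.70). It rests in part on readings of 0, since the small subunit value is the mean of RPS10 and of RPS6, whose fitted change of −1.90 depends on the value put in place of 0. With RPL29, RPL17 and RPL5 against RPS10 alone it was 1.31, and 0.56 on the deposited scale. The difference stayed positive under each of the 24 settings tried, between 0.66 and 2.10, and settings that share arrays are no independent support. Settings that change only blocks, averaging or the prior keep 1.87 by construction, and median centring keeps the 0.66 of the deposited scale. The large subunit median also includes AT1G29070, picked for its rise and listed at 0 on all staurosporine arrays. No test is given, with so few genes chosen as they were.

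Within an array, the ratio of 2 members is free of array-wide scale. RPL5 over RPS10 was 0.757 to 2.01 with staurosporine (median 1.30) and 1.75 to 4.03 with ascorbate (median 2.72). It was higher with ascorbate in 6 of 6 array numbers, although the ranges overlapped. Consecutive arrays resemble each other, so these are not 6 separate comparisons. Of the 2539 other features with no zero, 18.2% had a ratio over RPS10 that was higher with ascorbate in all 6 numbers. RPL17 over RPS10 was 1.16 to 3.94 (median 1.67) and 1.52 to 7.32 (median 2.47), higher with ascorbate in 5 of 6 numbers, with array number 3 as the exception. A ratio higher in 5 or 6 numbers was found for 40.0% of features.

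RPL29 over RPS10 did not behave alike across the pairs. It was 3.80 to 19.0 with staurosporine (median 8.14) and 4.43 to 23.5 with ascorbate (median 10.2). The ratio was higher with ascorbate in 3 of 6 numbers, and by pair its log2 difference was 1.81, −0.24 and −0.70. For RPL17 the same differences were 0.95, 0.20 and 0.54, and for RPL5 0.93, 0.69 and 1.58. Averaged over the pairs, the log2 differences against RPS10 were 0.29 ± 1.34 for RPL29, 0.56 ± 0.37 for RPL17 and 1.07 ± 0.46 for RPL5 (SD, n = 3). The median over all other features with no zero was 0.32. The averages of RPL17 and RPL5 lay above it. That of RPL29 lay close to it, but from pairs that ran from 1.81 to −0.70, so it gives RPL29 no settled place.

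**Figure D4:**
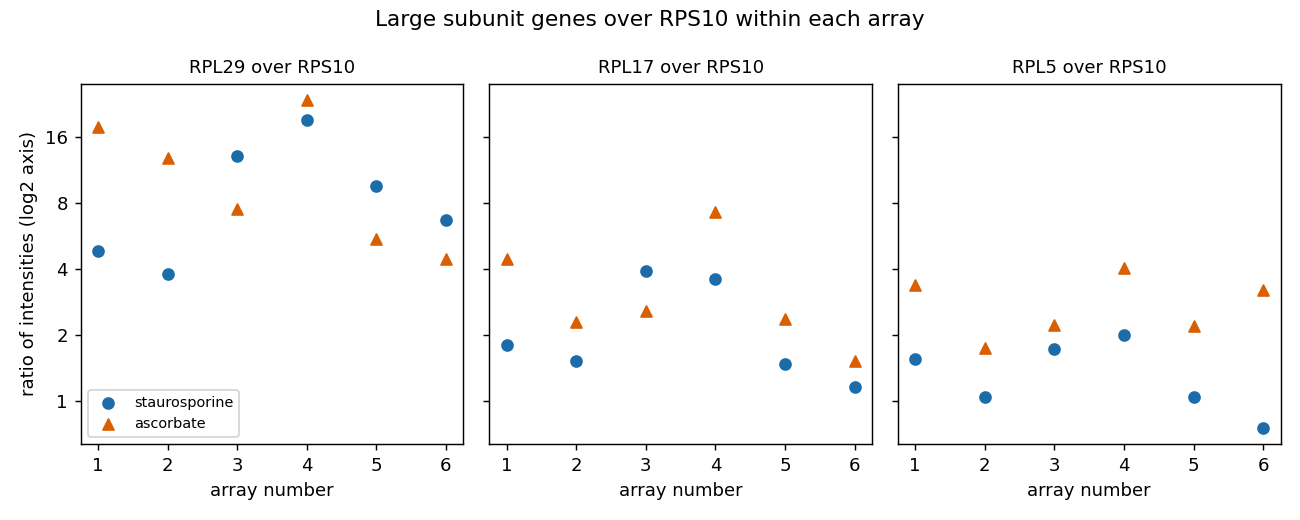
Ratio of the intensities of RPL29, RPL17 and RPL5 to that of RPS10 within each array (log2 axis), with circles for staurosporine and triangles for ascorbate. RPL5 over RPS10 is higher with ascorbate in 6 of 6 array numbers, RPL17 over RPS10 in 5 of 6 and RPL29 over RPS10 in 3 of 6.

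Among the large subunit genes themselves the ratios also differed between pairs. RPL29 over RPL5 was 3.11 to 9.47 with staurosporine and 1.38 to 7.31 with ascorbate, with log2 differences by pair of 0.88, −0.93 and −2.28. RPL17 over RPL5 was 1.16 to 2.28 and 0.475 to 1.82, with differences by pair of 0.01, −0.48 and −1.04. Averaged over the 3 pairs, the log2 differences were −0.78 ± 1.59 for RPL29 over RPL5 and −0.50 ± 0.53 for RPL17 over RPL5 (SD). For RPL29 over RPL17 the average was −0.27 ± 1.06 (SD). Each was smaller than its SD and the ranges of the groups overlapped, so an unequal change between the groups is not shown. Among the 3 large subunit genes with no zero, RPL29 had by these ratios the highest relative change under ascorbate in arrays 1 and 2. RPL5 had it in arrays 3 and 4 and in arrays 5 and 6. After quantile normalization RPL29 was the higher in arrays 3 and 4, at 0.33 against 0.26 for RPL5.

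The named genes most like each member over the 12 arrays were found by Pearson's r of normalized log2 values among 505 named loci with no zero, and they are listed by locus since the gene table gives them no symbol. For RPS10 they were AT5G19750 (r = 0.94) and AT3G03890 (r = 0.83). For RPL5 they were AT4G15790 (r = 0.85) and AT3G08000 (r = 0.82), for RPL29 AT1G13990 (r = 0.85) and AT2G38550 (r = 0.84), and for RPL17 AT2G30320 (r = 0.77) and AT1G31220 (r = 0.76). The other members were not among the loci searched. Within the groups of 6 arrays r could be lower, as for AT2G38550, at 0.39 with ascorbate and 0.51 with staurosporine, against 0.90 and 0.89 for AT5G19750. These values are descriptions over arrays that share their group, and consecutive arrays resemble each other.

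Other genes of plastid translation were scarce among the single-gene probes. Of 28 loci for plastid translation and ribosome assembly factors, 4 had a single-gene probe. A further 5 were only on probes of several genes and were not followed. None of the 4 passed in the limma fit, where 28.0% of all features did, with 1 at an unadjusted p under 0.05 (AT5G19210, adjusted p = 0.101). AT5G14910 read 0.656 to 1.20 with staurosporine and 0.928 to 1.22 with ascorbate (log2 change 0.08 ± 0.10 SE, limma adjusted p = 0.618). AT2G25870 read 0.343 to 0.671 and 0.537 to 0.844 (log2 change 0.13 ± 0.10 SE, limma adjusted p = 0.364). It passed as higher on the deposited scale (0.60, limma adjusted p = 0.0404), like 31.8% of all features. AT5G19210 read 0.0863 to 0.260 and 0.133 to 0.294, a log2 change of −0.99 ± 0.42 (SE). AT5G46420 was, like AT1G29070, listed at 0 on all 6 staurosporine arrays, and read up to 0.148 with ascorbate, with 3 of its ascorbate arrays also at 0. Its limma adjusted p was 0.28. It passed as higher on the deposited scale (limma adjusted p = 0.00991), again like 31.8% of all features, and its value there depends on what was put in place of 0. No locus of plastid transcription, of the aminoacyl-tRNA synthetases or of other ribosomal proteins on the lists had a single-gene probe, so cytosolic and mitochondrial ribosomal proteins were not analysed here.

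The 5 photosystem and antenna genes gave no call either in the limma fit, and none had an unadjusted p under 0.05, beside 28.0% of all features called. With so few genes, counts of 0 say little against that share. Their median normalized log2 change was 0.06, and 0.04 on the deposited scale. PSAN, a subunit of photosystem I, passed as higher on the deposited scale (log2 change 0.72, limma adjusted p = 0.0497), where 31.8% of all features did. Its change was close to the 0.73 of RPL17 there, and nothing is read from that likeness.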

How the data were processed

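The authors deposited 1 table of 3439 probes by 12 arrays, whose intensity values run from 0 to 100 on a linear scale. Their reference, the scanner, background correction and any scaling are not given in the labels or other sources used here. Groups and array numbers came from the titles. Of 692 probes with 1 gene in the platform annotation, 690 matched the TAIR10.1 gene table by Entrez number, which served for loci and symbols only. That table gives the 6 members no symbol, and RPL29, RPL5, RPL17, RPS6 and RPS10 are the names under which these loci were listed for this work. Probes of 1 locus were averaged.

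A zero took the smallest positive value on its array, log2 was taken, and arrays were quantile-normalized, since array medians of log2 intensity spanned 1.53. The main test was limma 3.58.1 (lmFit with eBayes under R 4.3.3, group as the only term, 2-sided), with Benjamini-Hochberg adjustment over 3438 features and a threshold of 0.05. The fit was tested on simulated data. The members and lists were chosen with earlier results of these data known. Named genes were the 6 members, the 2 best-correlated loci of each member with at most 2 zeros, and the measured genes of each list.

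Same-numbered arrays of the groups deviated together (correlations across features 0.184, 0.182, 0.315, 0.347, 0.106 and 0.157 for numbers 1 to 6). Each exceeded 0.1, but the values were alike within consecutive numbers, so they do not show 6 separate pairs. No label states a pairing. Descriptions by array number or by pair match the groups on this evidence alone. The planned limma fit had no term for it, and array number as a block was an alternative. No genome build is given, and no coordinates or sequences are printed. Alternatives were other scalings, a pseudocount of 0.000225, removal of the dimmest 25% of features, blocks, pair averages, an intensity trend with a robust prior and each array left out. Features with no zero, and arrays 3 to 6 only, were added as alternatives after seeing the data.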

Additional observations from a re-analysis of the deposited data

Results flagged for a closer look

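RPS6 read 0.00175 on ascorbate array 6, apart from the other 5 ascorbate arrays, all listed at 0. Of the 12 sets of 6 readings looked at (6 genes, 2 groups), this was the single one with a reading set apart. With the other 5 at exactly 0, any reading above 0 would have stood apart, so the chance rate of about 1 in 20 does not apply to it.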

How the results depend on the processing

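Of the 5 members tested, 2 passed in the planned limma fit, where 28.0% of all features did. None passed after median centring (0 at an unadjusted p under 0.05, with 36.9% of all features passing) or over pair averages (2 unadjusted, 1.54% of features). None passed either with consecutive arrays as a random block (1 unadjusted, 16.2% of features) or with arrays 3 to 6 only (0 unadjusted, 24.7% of features). In the paired fit with the array number as a block 1 passed (RPS10, with 24.7% of all features). With an intensity trend and robust prior 1 passed (RPL29, with 29.6% of features). Of 4 members tested, 1 passed (RPL29) without the dimmest 25% of features (37.4% of features) and over features with no zero (40.7%). With 1 array left out 1 to 2 of the 5 passed, beside 22.9% to 27.7% of all features. All calls fell from 964 to 53 over pair averages and 557 with the random block, where fewer independent samples or correlated arrays enter by construction, and were 849 with the array number as a block. With 1 array left out, the large minus small subunit difference stayed positive. It moved from 1.87 to 0.66 on the deposited scale, and the cause was not tested. Median centring gave the same 0.66 by construction, since a shift of a whole array cancels in this difference. Directions were reversed for RPS10 on the deposited scale (0.17), and for RPL29 (−0.30) and RPL17 (−0.026) after median centring, and the cause was not tested. The sign of RPS6, at 0 on 9 arrays, changed on the deposited scale (0.48 against −1.90), where both values depend on what was put in place of 0 and neither gives a direction. The split of all calls was 479 higher and 485 lower (13.9% and 14.1% of features), 1093 and 208 on the deposited scale, and 515 and 755 after median centring. Mean levels over 6 arrays equalled those of pair averages by construction. Dim readings limit RPS6 and AT1G29070, listed at 0 on most arrays.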
